A study of Mus musculus with 6 samples.

Results

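The mesenchymal forkhead genes described here are Foxc1, Foxc2, Foxf1, Foxf2, Foxd1, Foxd2, Foxl1, Foxl2, Foxs1 and Foxq1. They were chosen by name as forkhead genes of embryonic mesenchyme, with earlier results of these data known. Each was taken by its transcript with the highest mean. All 10 were found among the 25043 genes of the table, and each had 1 transcript there. RNA-seq was made from primary mouse embryonic fibroblasts (MEFs), which are cells grown out of embryos and kept at passage numbers below 8. The 6 libraries were 3 wild-type (WT) and 3 Anp32e null, the null cells lacking ANP32E, a chaperone that takes the histone variant H2A.Z off chromatin. Age of the embryos, and whether the 3 libraries of a genotype came from separate embryos, are not given in the sources used here. Each value below is a mean normalized count over all 6 libraries, WT and Anp32e null together, so no comparison of the genotypes was made and the loss of Anp32e itself could not be checked.

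Forkhead factors bind DNA through a winged-helix domain, and the family shares that domain while the rest of each protein differs. Foxc1 and Foxc2 are known for their roles in somites, kidney and blood and lymph vessels. Foxf1, Foxf2 and Foxl1 act in the mesenchyme around the gut and other organs, downstream of hedgehog signals from the epithelium. Foxd1 marks the stromal progenitors of the kidney, and Foxl2 is best known for the granulosa cells of the ovary and the mesenchyme of the eyelid.

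The paralogs share stretches of coding sequence inside otherwise distinct transcripts, and these are shown as the places where the paralogs are most alike. By the study's methods, reads were longer than any of these runs. The longest run common to each pair is in capitals, with 20 bases of lower-case sequence on either side, all from GRCm38 and read 5′ to 3′ on the gene's strand.
Foxc1, chr13:31807626-31807718, + strand: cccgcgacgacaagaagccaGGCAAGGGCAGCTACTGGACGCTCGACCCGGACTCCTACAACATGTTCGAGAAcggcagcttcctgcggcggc
Foxc2, chr8:121117012-121117104, + strand: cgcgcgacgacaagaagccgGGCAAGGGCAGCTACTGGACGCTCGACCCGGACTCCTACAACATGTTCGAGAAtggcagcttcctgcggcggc
Foxd1, chr13:98355011-98355097, + strand: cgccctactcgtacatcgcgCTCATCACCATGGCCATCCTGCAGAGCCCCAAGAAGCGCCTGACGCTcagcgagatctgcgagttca
Foxd2, chr4:114908347-114908433, − strand: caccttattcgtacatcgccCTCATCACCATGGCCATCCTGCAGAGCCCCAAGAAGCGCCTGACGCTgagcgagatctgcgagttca
Foxf1, chr8:121084637-121084717, + strand: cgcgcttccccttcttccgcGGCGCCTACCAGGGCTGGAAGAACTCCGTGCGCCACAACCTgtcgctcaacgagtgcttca
Foxf2, chr13:31626474-31626554, + strand: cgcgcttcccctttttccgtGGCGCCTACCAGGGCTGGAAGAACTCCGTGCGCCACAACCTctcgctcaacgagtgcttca
The run was 53 nt for Foxc1 and Foxc2, 47 nt for Foxd1 and Foxd2, and 41 nt for Foxf1 and Foxf2. Over all 45 pairs of members the longest shared run had a median of 20 nt and a range of 11 to 53 nt. Windows of 50 nt shared by Foxc1 and Foxc2 numbered 4, which was 0.069% of the Foxc1 windows and 0.149% of the Foxc2 windows. The transcripts of the 10 genes were therefore distinct at that length from one another, apart from those 4 windows.

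Foxc2 had the highest level, with a mean of 1523 normalized counts, or 559 per kb of transcript (95% counting interval 547 to 571). Levels between genes are compared per kb, using the RefSeq transcript length unless another is named, and the intervals cover counting error only. The spread between libraries is not in them; it could be recovered only for Foxd1 and Foxl2, whose libraries differ by more than those intervals. Foxs1, known from pericytes and sensory neurons, followed at 414 per kb (399 to 429). Foxf2 stood at 358 per kb (348 to 369) and Foxc1 at 355 per kb (347 to 363). Foxq1, best known for hair and stomach epithelium, had 151 per kb (145 to 157). Foxl1, a gene of the mesenchyme beneath the gut epithelium, had 108 per kb (103 to 113), and Foxf1 had 66.2 per kb (61.9 to 70.8). Foxd2, expressed in kidney and somite mesenchyme, had 41.8 per kb (38.5 to 45.3). The lowest levels were those of Foxd1, at 15.7 per kb (13.6 to 17.9), and Foxl2, at 1.87 per kb (1.22 to 2.74). The highest level per kb was 299 times the lowest.

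**Figure D1:**
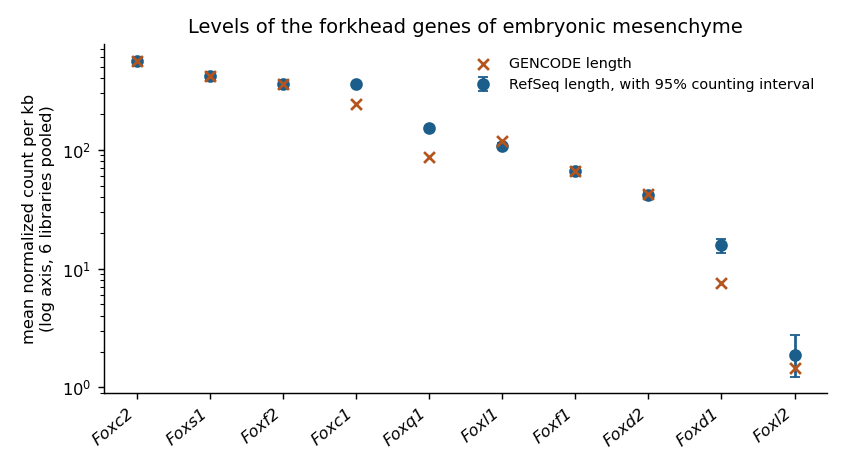
Mean normalized count per kb of the 10 genes on a log axis, pooled over the 6 libraries; circles use the RefSeq length with the 95% counting interval and crosses the GENCODE length. Levels run from 559 per kb for Foxc2 to 1.87 per kb for Foxl2, and the crosses part from the circles most for Foxc1, Foxq1 and Foxd1.

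Of the 9 neighbouring steps in that order, 8 were larger than counting error, which was judged from exact binomial intervals of the ratio. Foxf2 and Foxc1 could not be separated by counting, with a ratio per kb of 1.01 (0.973 to 1.05). With GENCODE lengths this ratio was 1.48, since GENCODE gives Foxc1 a transcript of 5844 nt against 3990 nt in RefSeq. Foxq1 was above Foxl1 by a ratio of 1.4 (1.32 to 1.49), but with GENCODE lengths the order turned and the ratio was 0.742. The largest step on RefSeq lengths was that from Foxd1 to Foxl2, at 8.38 (5.56 to 13.1), but on GENCODE lengths it was 5.25, below the 5.55 from Foxd2 to Foxd1. Within paralog pairs, Foxc2 was 1.58 times Foxc1 per kb (1.53 to 1.63), Foxf2 was 5.41 times Foxf1 (5.03 to 5.82), and Foxd2 was 2.67 times Foxd1 (2.28 to 3.14). Foxl1 was 57.6 times Foxl2 (39.2 to 88.5), but these were paired by name, and their longest shared run was 17 nt. On GENCODE lengths the same ratios were 2.31, 5.4, 5.55 and 81.4, so in each pair the same member was higher under both.

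The reads behind each mean set its counting error, but not its spread between libraries. Between 8308 and 10336 reads lay behind the mean of Foxc2, and between 7722 and 9607 behind that of Foxc1, over the 6 libraries together. Foxf2 had 4621 to 5750 reads, Foxs1 2961 to 3684 and Foxq1 2311 to 2876. Foxl1 had 1738 to 2162, Foxf1 876 to 1090 and Foxd2 597 to 743. For the lowest means the reads could be worked out exactly, giving 226 reads for Foxd1 and 27 for Foxl2.

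The mean of a gene is a sum of whole reads, each worth 1 over 6 times its library's size factor, and for a low mean only 1 set of reads gives the deposited value. The 6 size factors recovered in this way were between 0.909 and 1.13. The libraries are numbered by falling size factor, and which of them are WT and which Anp32e null is not known. Foxd1 had 20, 12, 67, 11, 59 and 57 reads in libraries 1 to 6. In normalized counts these were 17.7, 11.4, 65.2, 11.1, 63.1 and 62.7, with a median of 40.2. Foxd1 was thus detected in each of the 6 libraries.

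Foxl2 had 0, 0, 6, 3, 14 and 4 reads in the same libraries, or 0, 0, 5.84, 3.04, 15 and 4.4 normalized counts. It was detected in 4 of 6 libraries, and library 5 held 14 of its 27 reads. Without library 5 the mean of Foxl2 was 2.66 in place of 4.71. Foxl2os, a noncoding gene on the other strand, lies 0.296 kb from Foxl2 in RefSeq and overlaps it by 12 nt in GENCODE. It had 1, 0, 12, 0, 8 and 22 reads, 43 in all, for a mean of 7.55. Its highest library was the sixth, where Foxl2 had 4 reads. A count of 0 in a library allows an expected count of up to 3 (1-sided 95% Poisson bound).

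**Figure D2:**
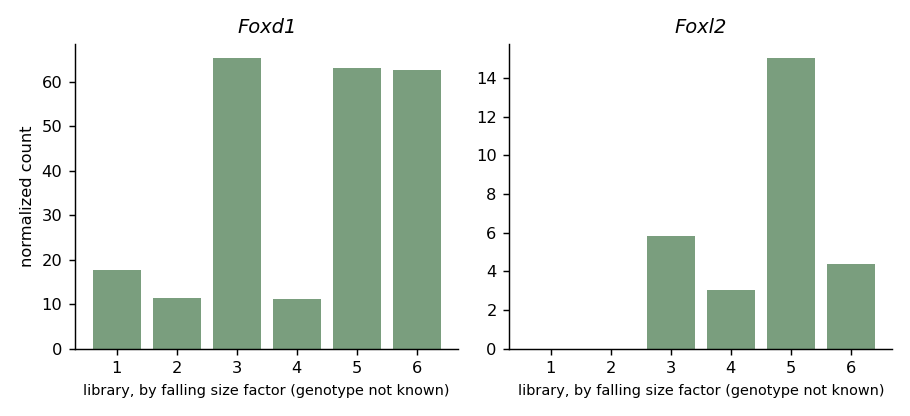
Normalized counts of Foxd1 and Foxl2 (linear axes of different range) in each of the 6 libraries, numbered by falling size factor, whose genotype is not known. Foxd1 ranges from 11.1 to 65.2 and Foxl2 from 0 in libraries 1 and 2 to 15 in library 5.

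Among the 19275 genes with any read, ranked by their mean, 5 members were above the median gene and 5 below. Foxc2 was at the 69.6th percentile, Foxc1 at the 68.3rd, Foxf2 at the 60.0th, Foxs1 at the 54.3rd and Foxq1 at the 51.8th. Foxl1 stood at percentile 49.0, Foxf1 at 43.6, Foxd2 at 40.9, Foxd1 at 34.4 and Foxl2 at 21.2. Per kb of GENCODE length, the members above the median were Foxc2 (71.1), Foxs1 (66.4), Foxf2 (64.0) and Foxc1 (57.9). Foxq1 then fell below the median, to 45.8. That ranking held the 17323 genes with reads and a length. Of the 10 members, 9 (90%) reached a mean of 10 normalized counts, Foxl2 being the exception. The same level was reached by 14246 of 25043 genes (56.9%), by 12768 of 20444 coding genes (62.5%) and by 19 of the 34 other forkhead genes (55.9%). At a mean of at least 50 there were 8 members, with Foxd1 below as well.

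The other forkhead genes with the highest means were Foxk2 at 6446, Foxm1 at 5255, Foxp1 at 5171, Foxn2 at 3070 and Foxk1 at 1882. Foxm1 is a factor of dividing cells. Per kb of GENCODE length, Foxk2 (1280) and Foxm1 (1130) were above every member, and Foxc2 came next with 559, Foxs1 sixth with 414 and Foxf2 eighth with 359. Foxp1 and Foxn2 had no matched length and could not be placed. The median per kb was 103 over the 10 members, 61.7 over the 25 other forkhead genes with reads and a length, and 131 over all 17323 genes with both. Over the 14878 coding genes with both it was 182. Of the other forkhead genes, 7 were listed at 0, among them Foxd3, a neural crest factor, and Foxd4, both close relatives of Foxd1 and Foxd2. A count of 0 over all 6 libraries allows an expected count of up to 3 (1-sided 95% Poisson bound), which is a mean of at most 0.55.

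**Figure D3:**
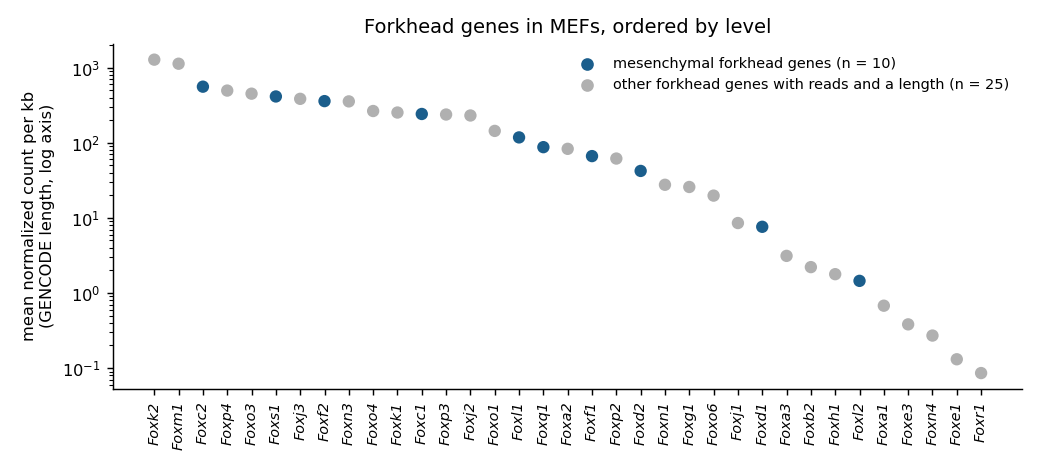
Mean normalized count per kb of GENCODE length, on a log axis, for the 35 forkhead genes with reads and a matched length; blue points are the 10 mesenchymal forkhead genes and grey points the 25 others. Blue points occur from the third place (Foxc2) to the 30th (Foxl2).

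Of the 10 genes, 6 lie in 2 clusters of 3. On chromosome 8, Foxf1 (chr8:121084386-121088154), Foxc2 (chr8:121116171-121118895) and Foxl1 (chr8:121127685-121130644), all on the + strand of GRCm38.p6, span 46.3 kb. Levels in that order were 66.2, 559 and 108 per kb, so the middle gene was the highest. On chromosome 13, Foxq1 (chr13:31558170-31560976), Foxf2 (chr13:31625816-31631406) and Foxc1 (chr13:31806646-31810635), also on the + strand, span 252 kb. Their levels were 151, 358 and 355 per kb. Each cluster thus holds 1 Foxc gene and 1 Foxf gene, and the Foxc gene was the higher on chromosome 8. On chromosome 13 the Foxc and Foxf genes could not be separated by counting on RefSeq lengths. On GENCODE lengths the ratio of Foxf2 to Foxc1 was 1.48.

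**Figure D4:**
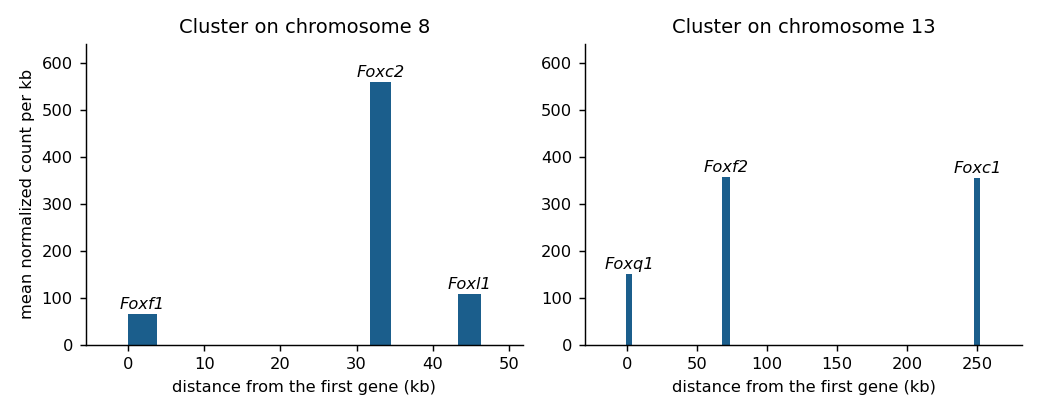
Mean normalized count per kb (bars from 0) against the distance in kb from the first gene of each cluster, the bar's width being the gene's span. Foxc2 stands at 559 per kb between Foxf1 (66.2) and Foxl1 (108). On chromosome 13, Foxf2 (358) and Foxc1 (355) are at nearly the same height on the RefSeq lengths used.

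The other 4 genes lie in no cluster with another member, though Foxd2 has a forkhead gene that is no member, Foxe3, 15.5 kb away. Foxd1 lies at chr13:98354245-98356705 (+), Foxs1 at chr2:152931898-152933208 (−), Foxd2 at chr4:114906280-114908898 (−) and Foxl2 at chr9:98955607-98958126 (+). A single exon was annotated for 8 members (80%), Foxf1 and Foxf2 having 2 exons. Single-exon transcripts made up 18.8% of 32 other forkhead genes and 4.02% of 14878 coding genes with any read. G and C made up 54.4% to 62.7% of the member transcripts, and the median of coding transcripts was 50.4%.

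Genes within 100 kb of a member, other than members, numbered 29. Of these, 17 had a mean of at least 10 (15 of 21 coding and 2 of 8 noncoding). Over the whole table that level was reached by 56.9% of genes and 62.5% of coding genes. On chromosome 8, Mthfsd lies between Foxf1 and Foxc2 and had a mean of 1703, or 205 per kb on GENCODE length. Fendrr, the noncoding gene 1.27 kb from Foxf1, had a mean of 2.14 (0.89 per kb), from 9, 0, 4, 1, 0 and 0 reads in libraries 1 to 6. Foxd2os, 0.358 kb from Foxd2, had a mean of 229 and 78.7 per kb, where Foxd2 had 42.2 per kb on the same lengths. Foxe3, a lens factor 15.5 kb from Foxd2, had a mean of 0.331. Gmds, 8.95 kb from Foxc1, had 1362, or 795 per kb. The other neighbours of Foxd2 were Gm12830, listed at 0, Stil at 893 (169 per kb) and Cmpk1 at 3443 (1090 per kb).

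Foxq1 overlaps an antisense noncoding gene, A530084C06Rik (chr13:31556134-31559333, −), over 1164 nt, or 41.5% of its RefSeq length. The library kit marks strand, but the strand setting used in counting is not given in the sources used here, so reads of the antisense gene may be part of the Foxq1 value. A530084C06Rik has no row among the genes matched.

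Sequence just before the annotated start was held for Foxd2, Foxl2, Foxf2, Foxc1 and Foxd1. The 250 bases of 3 of these are shown, as examples of high levels (Foxc1 and Foxf2) and of a low level (Foxd1), from RefSeq on GRCm38.p6, read 5′ to 3′ on the gene's strand. Capitals mark the GC box GGGCGG and the CCAAT box, each on either strand.
Foxc1, chr13:31806396-31806645, + strand: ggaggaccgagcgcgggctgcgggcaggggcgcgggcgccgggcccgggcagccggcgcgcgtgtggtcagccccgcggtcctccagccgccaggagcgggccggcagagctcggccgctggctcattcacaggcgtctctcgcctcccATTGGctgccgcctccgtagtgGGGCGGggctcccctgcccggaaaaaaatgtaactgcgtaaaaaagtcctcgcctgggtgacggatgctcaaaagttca
Foxd1, chr13:98353995-98354244, + strand: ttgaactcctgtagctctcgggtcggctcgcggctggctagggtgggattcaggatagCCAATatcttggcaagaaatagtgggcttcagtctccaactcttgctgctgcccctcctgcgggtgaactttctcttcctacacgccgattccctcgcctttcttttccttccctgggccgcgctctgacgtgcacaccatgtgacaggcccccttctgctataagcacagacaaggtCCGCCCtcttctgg
Foxf2, chr13:31625566-31625815, + strand: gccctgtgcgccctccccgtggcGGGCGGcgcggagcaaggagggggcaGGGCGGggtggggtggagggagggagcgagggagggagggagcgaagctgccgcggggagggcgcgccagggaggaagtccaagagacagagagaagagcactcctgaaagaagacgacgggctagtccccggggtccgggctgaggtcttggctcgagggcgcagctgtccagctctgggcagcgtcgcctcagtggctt
The G and C content was 70.8% for Foxc1, 57.2% for Foxd1 and 70.8% for Foxl2, against a median of 52.4% over 32851 promoters. Foxf2 had 71.6% and Foxd2 64.4%. The ratio of CpG observed to expected was 0.928 for Foxc1, 0.724 for Foxf2, 0.704 for Foxl2, 0.619 for Foxd2 and 0.6 for Foxd1, and the median promoter had 0.373. A GC box was found in 5 of 5 (32.7% of all promoters), and a CCAAT box in 2 of 5, Foxc1 and Foxd1 (33.8% of all). TATAAA (12.4% of all) and the forkhead motif TGTTTAC (3.17% of all), searched on both strands, were in none of the 5. The promoters behind these percentages were not matched to the 5 for G and C content, which bears on how often such motifs occur. For Foxl2 the whole window lies inside the longer transcript that GENCODE gives it, so its values are those of transcribed sequence there.

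**Figure D5:**
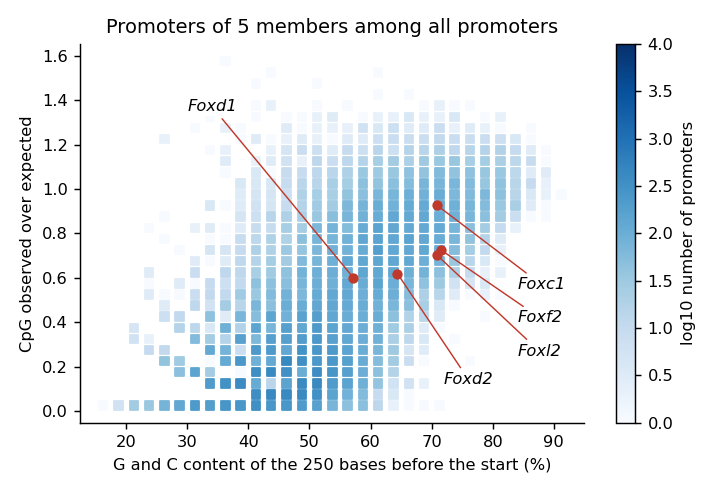
CpG observed over expected against G and C content (%) of the 250 bases before the start, with all 32851 promoters as squares shaded by the log10 of their number and the 5 members held as red points. All 5 points are above the medians of 52.4% and 0.373.

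The marker lists were chosen with earlier results of these data known, so they are no independent check of the label of the cells. Fibroblast and mesenchyme markers had a mean of at least 10 for 14 of 16 genes, led by Vim (330695), S100a4 (87080) and Fn1 (86443). Lum (1.33) and Tcf21 (0.34), named after their values were seen, were the exceptions. For comparison, 62.5% of all coding genes reached a mean of 10, a level at percentile 26.1 of the genes with any read. Among epithelial markers 4 of 7 (57.1%) reached 10, led by Krt18 (1106), Cdh1 (67.1) and Krt8 (26.7). Endothelial markers reached it for 3 of 7, namely Kdr (2958), Tek (34.4) and Erg (23.9), while Pecam1 had 4.47, Cdh5 3.54 and Emcn 0. Macrophage markers reached it for 2 of 6, Cd68 (257) and Csf1r (40.1), followed by Ptprc at 3.09. Of the granulosa cell markers, listed because of Foxl2, 5 of 7 (71.4%) did, led by Inhba (3722), Fst (735) and Nr5a1 (135). Cyp19a1 and Fshr were listed at 0. Neural crest and glial markers did so for 2 of 6, Erbb3 (97.2) and S100b (26.6), followed by Sox10 at 8.22. In bulk RNA, few cells with a high level and many cells with a low level cannot be told apart, and the part of such cells in the member levels was not tested.

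The hedgehog pathway acts upstream of Foxf1, Foxf2 and Foxl1. A mean of at least 10 was reached by 62.5% of all coding genes and by 11 of the 14 hedgehog genes (78.6%). The highest were Smo, the signal transducer, at 9249 (2450 per kb), the transcription factor Gli3 at 1886 (231 per kb) and the coreceptor Gas1 at 1322 (1140 per kb). Of the ligands, Dhh had a mean of 49, Ihh had 4.54 and Shh was listed at 0. The median mean was 486 over the hedgehog list and 371 over the members, beside 161 over all coding genes and 43.4 over all genes. Both backgrounds include genes at 0. Per kb of GENCODE length, both lists were below both backgrounds. The medians were 97.5 over the hedgehog list and 103 over the members, beside 182 over coding genes and 131 over all genes. These medians per kb leave out genes without reads or without a length.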

How the data were processed

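Total RNA of 3 WT and 3 Anp32e null MEF libraries was made into stranded libraries. Reads were aligned to mm10 by the authors using STAR. Reads on RefSeq transcripts were then counted using featureCounts (Subread), and the authors deposited a DESeq2 table (versions not given in the sources used here). The signal used here is the deposited mean normalized count over all 6 libraries, that is counts divided by size factors. The table's 5 other columns hold the authors' own comparison (log2 fold change, its standard error, test statistic, p-value and adjusted p-value) and were not used. Total reads per library are unknown.

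Transcripts were matched to genes through RefSeq GRCm38.p6 (42203 of 42361 matched), each gene being taken by its highest transcript. Lengths of members came from RefSeq, and those of other genes, percentiles per kb and the family order from GENCODE. Low means, up to 40, were solved for whole reads per library and used only where 1 solution existed. This step was tested on simulated data. Intervals are exact Poisson (levels) or exact binomial (ratios) at 95%, and cover counting error only. No test was run. The members and all gene lists were chosen with earlier results of these data known. Genes named were the members, the 5 other forkhead genes with the highest means, genes within 100 kb, and the 3 highest of each list. Genes outside this rule were named after their values were seen. For 1 gene, a result that would be given is not reported here. Alternatives were another background for percentiles, levels per kb with either length, a minimum mean of 50, a wider tolerance and leaving out a library. Python 3.11.15, numpy 2.4.6, pandas 2.3.3 and scipy 1.17.1 were used.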

Additional observations from a re-analysis of the deposited data

How the results depend on the processing

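The median level over the 10 members was 371 normalized counts, 130 per kb of RefSeq length and 103 per kb of GENCODE length, the last an alternative added after the data were seen. The median percentile was 50.4 among genes with any read, 32.9 among genes with a mean of at least 10 and 47.3 per kb, and autosomal genes gave 50.1. Every member fell in percentile among genes with a mean of at least 10, as leaving the lowest genes out of the background must bring about. Per kb, 3 rose and 7 fell. Members at the minimum mean numbered 9 at 10 and 8 at 50. Leaving out each library in turn gave means of 33.2 to 44 for Foxd1 and 2.66 to 5.65 for Foxl2, the lowest for Foxl2 being without library 5. A tolerance 10 times wider left the reads per library of both as they were. No other transcript could stand for a member, since each had 1. No paired analysis was possible because the values pool the 6 libraries, and the libraries recovered carry no genotype or replicate number. Depth limits Foxl2 most, with 27 reads in all.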

Other observations

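The Foxd1 values fell into separate ranges. Libraries 1, 2 and 4 had 17.7, 11.4 and 11.1 normalized counts, and libraries 3, 5 and 6 had 65.2, 63.1 and 62.7. No library carries a genotype here, so nothing was compared between these sets. Low forkhead genes that are no member were solved in the same way and were chosen after their values were seen. Foxj1, the factor of motile cilia, had 24.8, 22.8, 23.4, 6.08, 31 and 26.4 normalized counts in libraries 1 to 6. Foxa1, an endoderm factor, had 8, 3, 0, 3, 0 and 0 reads, and Foxa3 had 7, 5, 3, 9, 8 and 6. Foxb2 had 0, 0, 6, 4, 2 and 7 reads, Foxh1 had 5, 1, 5, 0, 2 and 2, and Foxn4 had 0, 2, 1, 2, 0 and 0. A pattern over libraries common to these genes was not tested.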
